A study of Mus musculus with 9 samples.

Results

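The S100 proteins are small calcium sensors of vertebrates, and 8 of their genes were followed in Caki cells that carried added YAP1. The 8 were the rows of the count table named S100A2, S100A4, S100A6, S100A10, S100A11, S100A13, S100A16 and S100P, out of 58735 genes in all. They were listed by name, and 7 of the 8 passed the filter on low counts, since S100P had 16 counts over all libraries. The cells are a long-established human line from a clear cell carcinoma of the kidney, and RNA was sequenced from 3 groups of 3 libraries. The YAP1-S127A group carried, in a retroviral vector, a YAP1 mutant in which alanine replaces a serine phosphorylated by the Hippo kinases, a form that stays active. The YAP1 group carried wild-type YAP1 in the same type of vector, and the MX group carried the empty vector. All cells had been selected with G418, and the labels name no change to the cells' own YAP1 gene. Whether a group's libraries were separate cultures, and whether a group was a clone or a pool, is not in the labels. The p-values therefore measure no more than library-to-library spread, possibly technical.

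An S100 protein usually forms a dimer, binds calcium through a pair of EF hands in each chain, and then exposes a surface that grips a target protein. The targets lie in the cytoskeleton, at the membrane and in the nucleus, and some S100 proteins leave the cell and act on the receptor RAGE. Most of the human genes sit side by side on the long arm of chromosome 1. Several are used as markers of epithelial, mesenchymal or inflammatory states in tumours.

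Total counts ran from 15789722 to 24811150 per library, and 3 counts stood for 0.107 to 0.229 CPM (TMM-scaled CPM, that is counts scaled to library size, the unit of all levels here). YAP1 itself averaged 688 ± 55.0 CPM in YAP1-S127A libraries, 1220 ± 268 CPM in YAP1 libraries and 99.9 ± 8.64 CPM in MX libraries (SD, n = 3 each), and it was called higher than in MX in both groups with added YAP1 (log2 fold changes 2.78 and 3.61). Mitochondrial transcripts took 7.40 to 29.6% of counts in YAP1-S127A libraries, 3.50 to 11.4% in YAP1 libraries and 1.896 to 6.60% in MX libraries. In two-sided exact permutation tests of that share, p was 0.1 for YAP1-S127A against MX, 0.4 for YAP1 against MX and 0.3 between the constructs, and 0.1 is the smallest p that 3 against 3 libraries can give. Of 9 kidney epithelium markers, PAX8, a transcription factor of the kidney lineage, averaged 262 CPM in YAP1-S127A, 297 CPM in YAP1 and 285 CPM in MX libraries, while PAX2 and LRP2 were under 1 CPM in every group, PAX2 at 0 counts in YAP1 and MX libraries. CDH6, a cadherin of the kidney tubule, averaged 127 CPM in YAP1-S127A, 277 CPM in YAP1 and 585 CPM in MX libraries. Of the 7 tested kidney epithelium markers, 1 rose and 2 fell with YAP1-S127A against MX, where 18.4% of all tested genes were called by edgeR. KRT8, a keratin of simple epithelia, rose (log2 fold change 0.65, adjusted p = 0.0121), a call lost under 2 of 21 settings, while CDH6 fell (-2.21, adjusted p = 4.03e-10) and EPCAM, an epithelial adhesion molecule, fell (-1.16, adjusted p = 0.000145). The libraries of each group were uneven for the S100 genes. MX replicate 1 was the lowest of the 3 MX libraries for 7 of the 7 tested members, and MX replicate 2 was the highest for 6 of them. YAP1 replicate 3 was the lowest YAP1 library for 7 of the 7, and YAP1-S127A replicate 1 was the lowest of its group for 5 of the 7.

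In the table, 5 of the members lie on chromosome 1 from 153534599 to 153631360, a run of 96.8 kb that holds S100A6, S100A4, S100A2, S100A16 and S100A13. S100A10 and S100A11 lie on the same chromosome between 151982915 and 152047907. These 7 genes are on the minus strand, while S100P is on the plus strand of chromosome 4 (6693069 to 6697170). The positions are those of the deposited table, and the sources used here do not name its human build. The listed span of S100A4, 153543613 to 153550136, contains all 2044 bases of S100A3 on the same strand, and that of S100A13 shares 3435 bases with S100A1 on the opposite strand. Counts of these pairs may be shared, since the counting rule is not given.

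The members differed widely in level. Divided by the gene length deposited beside the counts, S100A6, also called calcyclin, averaged 2360.3 ± 201 CPM per kb in YAP1-S127A, 2250.3 ± 173 CPM per kb in YAP1 and 2086 ± 528 CPM per kb in MX libraries (SD, n = 3 each). On this scale it ranked 18 among the 15492 tested genes, and S100A11 ranked 21. S100A11 averaged 1422 ± 35.7 CPM per kb in YAP1-S127A, 1391 ± 176 CPM per kb in YAP1 and 1744 ± 145 CPM per kb in MX libraries. S100A6 stood above S100A11 in 8 of 9 libraries, the exception being MX replicate 1, so these neighbours in the order were not separated in MX. S100A16 and then S100A10 followed in 9 of 9 libraries, at means of 573 and 256 CPM per kb over all libraries. S100A2 was the lowest of the 7 tested members in 9 of 9 libraries, with 15.1 ± 1.74 CPM per kb in YAP1-S127A, 14.7 ± 1.37 in YAP1 and 10.3 ± 3.09 in MX libraries. S100A4 exceeded S100A13 in 3 of 9 libraries, which were the 3 YAP1-S127A libraries, where S100A4 averaged 58.4 ± 7.97 and S100A13 28.1 ± 4.37 CPM per kb. In YAP1 libraries S100A4 averaged 23.1 ± 1.02 and S100A13 26.4 ± 1.88 CPM per kb, and in MX libraries 17.4 ± 6.58 and 23.7 ± 2.75 CPM per kb.

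**Figure D1:**
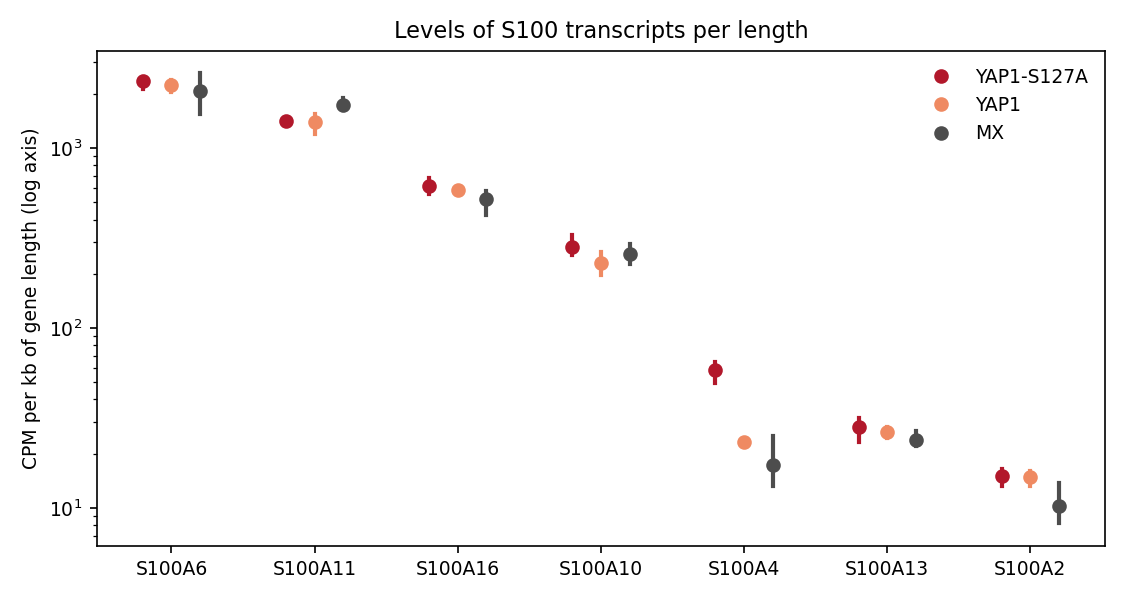
Mean CPM per kb of gene length of the 7 tested S100 genes (points, log axis) with the lowest and highest of 3 libraries (bars), for YAP1-S127A, YAP1 and MX. S100A6 and S100A11 lie near or above 1391 CPM per kb in each group, and S100A4 stands at 58.4 CPM per kb with YAP1-S127A against 17.4 CPM per kb in MX.

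Summed over the 8 members, the level was 4881 ± 316 CPM in YAP1-S127A, 4579 ± 361 CPM in YAP1 and 4585 ± 805 CPM in MX libraries (SD, n = 3 each). Scaled to total counts, which include the mitochondrial transcripts, the same sums were 4395 ± 760, 4734 ± 562 and 4937 ± 629 CPM in YAP1-S127A, YAP1 and MX libraries. The difference between groups was below the spread between libraries under either scaling, and its sign between YAP1-S127A and MX turned with the scaling.

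Setting YAP1-S127A against MX addresses which transcripts differ when the constitutively active form is added. S100A4 rose, by 3.41-fold, and S100A2 rose by 1.49-fold, while the other 5 tested members did not pass the test. The quasi-likelihood test of edgeR, Benjamini-Hochberg adjusted over 15492 genes, called 2 of 7 members, both higher, where 18.4% of all tested genes were called, 9.53% as higher and 8.84% as lower. With 7 members, 2 calls are close to that background share. The median log2 fold change of the 7 was 0.23, beside 0.00 for all tested genes, and 6 of the 7 estimates were above 0. Under total-count scaling, which shifted the median over all tested genes by -0.28, those above 0 were 2 of the 7, S100A4 and S100A2.

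S100A4, or metastasin, binds the heavy chain of non-muscle myosin IIA and is known for cell motility. It had 50.7, 62.5 and 66.4 CPM in YAP1-S127A libraries, 24.3, 24.3 and 22.5 CPM in YAP1 libraries and 13.5, 25.6 and 14.4 CPM in MX libraries. Each YAP1-S127A library lay above all the others, whereas MX replicate 2 was above all YAP1 libraries and the other MX libraries were below them. Against MX, the log2 fold change with YAP1-S127A was 1.77 (SE 0.19, adjusted p = 5.51e-06), and over 21 alternative settings it ran from 1.51 to 2.10 with the call kept in each. With the mitochondrial share as a covariate it was 1.85 (adjusted p = 0.000145), and with YAP1-S127A reduced to replicate 2, the library of that group with the lowest mitochondrial share, it was 1.82 (adjusted p = 0.00016). In this bulk RNA, more cells of a type and more RNA per cell cannot be told apart.

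S100A4 is also known as fibroblast-specific protein 1 in mice, and fibroblast markers moved with it. The summed level of 6 such genes was 2149 to 3956 CPM in YAP1-S127A, 1337.5 to 1689.9 CPM in YAP1 and 774.5 to 1309 CPM in MX libraries. COL1A1, a fibrillar collagen chain, made up most of that sum, with means of 2826 CPM in YAP1-S127A, 1482 CPM in YAP1 and 929 CPM in MX libraries. Against MX, 5 of the 6 genes rose with YAP1-S127A in edgeR's test, where 9.53% of all tested genes were called higher. Among them were LUM, the proteoglycan lumican (log2 fold change 3.53, adjusted p = 8.18e-08), and COL1A2, the partner chain of COL1A1 (6.68, adjusted p = 0.000858). Both were low in MX libraries, at 0.871 CPM for LUM and 0.741 CPM for COL1A2. In the same comparison DCN, the proteoglycan decorin, had 0.17 as log2 fold change (adjusted p = 0.864). With YAP1 against MX, 1 of the 6 was called, LUM as higher (1.60), where 3.23% of all tested genes were called higher. In the same test COL1A2 (3.25, adjusted p = 0.0511), COL1A1 (0.67, adjusted p = 0.0866) and MFAP5 (0.47, adjusted p = 0.472) were above 0 and not called. All YAP1 libraries lay above all MX libraries for COL1A2 and COL1A1, but not for MFAP5. PDGFRB (-0.21) and DCN (-0.83) were below 0 there and not called. MX replicate 2 was also the highest MX library for COL1A1, with 1272 CPM against 744 and 773 CPM, and for LUM, DCN and PDGFRB. It was the lowest MX library for the other genes of the list, COL1A2 (0.423 CPM) and MFAP5 (0.604 CPM). COL1A1 was highest in replicate 2 of YAP1 and YAP1-S127A libraries as well, whereas S100A4 in YAP1-S127A libraries was highest in replicate 3. In each group 0 of the 6 were without counts in all libraries. The part of these genes in the S100A4 result was not tested.

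S100A2 is an epithelial, largely nuclear member. It had 20.6, 25.8 and 24.7 CPM in YAP1-S127A libraries, 23.5, 25.0 and 20.8 CPM in YAP1 libraries and 12.9, 21.6 and 13.7 CPM in MX libraries. MX replicate 2 lay within the range of both groups with added YAP1, and the other MX libraries lay below them. The log2 fold change with YAP1-S127A against MX was 0.58 (SE 0.17, adjusted p = 0.0237). That call was lost without MX replicate 1 (adjusted p = 0.0792), MX replicate 3 (0.124), YAP1-S127A replicate 2 (0.0872) or YAP1-S127A replicate 3 (0.0841), with the mitochondrial share as covariate (0.0784), with YAP1-S127A replicate 2 alone (0.0971) and with scaling to total counts (0.167).

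**Figure D2:**
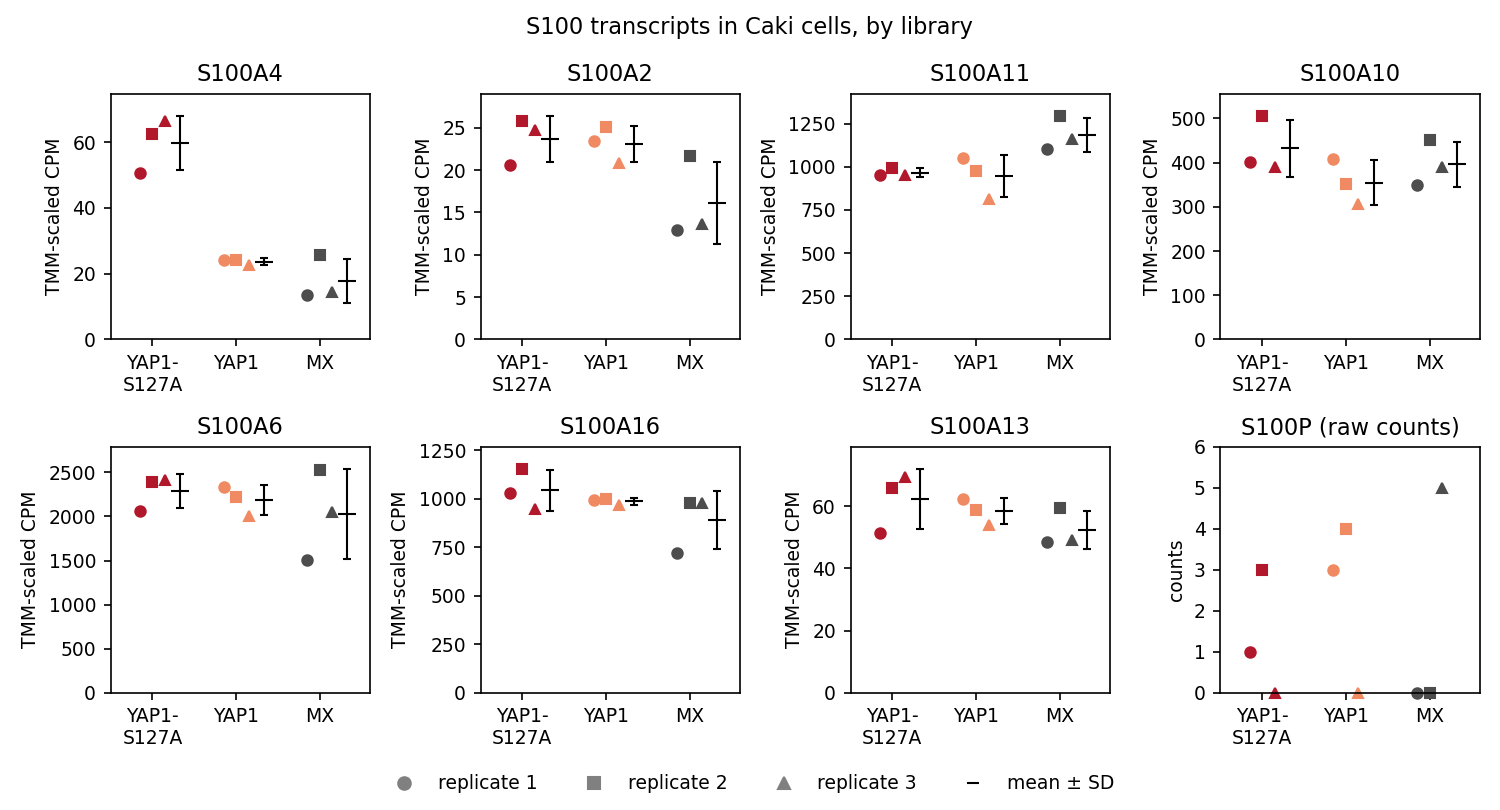
TMM-scaled CPM of 7 S100 genes in each library (points, shaped by replicate number) with the mean ± SD of 3 libraries, and raw counts of S100P, for YAP1-S127A, YAP1 and MX. S100A4 lies between 50.7 and 66.4 CPM in YAP1-S127A libraries, above all others, and MX replicate 2 (square) is the highest MX library in 6 of the 7 CPM panels.

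S100A11, or calgizzarin, binds annexin A1 and takes part in membrane repair. It had 951, 995 and 954 CPM in YAP1-S127A libraries, 1049, 975 and 814 CPM in YAP1 libraries and 1102, 1295 and 1159.9 CPM in MX libraries. All libraries of both groups with added YAP1 lay below all MX libraries. The test did not call it, with a log2 fold change of -0.29 for YAP1-S127A against MX (SE 0.13, adjusted p = 0.127) and -0.33 for YAP1 against MX (SE 0.13, adjusted p = 0.157). Groups that did not overlap were found for 32.6% and 24.1% of tested genes in these comparisons, and for 2 and 1 of the 7 members. Scaled to total counts, S100A11 had -0.56 with YAP1-S127A against MX and was called (adjusted p = 0.0105).

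S100A10, also called p11, has lost calcium binding and pairs with annexin A2 at the plasma membrane, where the complex takes part in plasmin formation. It had 401, 506 and 390.2 CPM in YAP1-S127A libraries, 409, 351 and 305 CPM in YAP1 libraries and 350.2, 451 and 389 CPM in MX libraries, and the groups overlapped. The log2 fold changes were 0.12 for YAP1-S127A against MX (SE 0.14, adjusted p = 0.597), -0.16 for YAP1 against MX (SE 0.14, adjusted p = 0.597) and 0.29 for YAP1-S127A against YAP1 (SE 0.14, adjusted p = 0.426). Under total-count scaling the first of these was -0.13, still not called. Per 100 counts of ANXA2, the gene of its partner, S100A10 had 19.8, 21.9 and 19.7 counts in YAP1-S127A libraries, 18.0, 18.1 and 17.2 counts in YAP1 libraries and 22.3, 24.2 and 22.2 counts in MX libraries. This ratio needs no scaling between libraries, and the 3 groups did not overlap, with MX highest and YAP1 lowest. How often ratios of other gene pairs separate in this way was not examined.

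S100A6, a growth-associated member that binds the ubiquitin ligase adaptor CACYBP, had 2067, 2395 and 2413 CPM in YAP1-S127A libraries, 2331, 2224 and 2001 CPM in YAP1 libraries and 1504, 2528 and 2046 CPM in MX libraries. The MX libraries spanned the whole range of both groups with added YAP1. S100A16, an S100 protein found in many tissues, had 1030.2, 1154 and 947 CPM in YAP1-S127A libraries, 994, 1002 and 967 CPM in YAP1 libraries and 719, 977 and 977 CPM in MX libraries. MX replicate 1 was the lowest of the 9 for both genes, and the groups overlapped. Against MX, S100A6 had log2 fold changes of 0.18 with YAP1-S127A (SE 0.16, adjusted p = 0.504) and 0.11 with YAP1 (SE 0.16, adjusted p = 0.786). S100A16 had 0.23 with YAP1-S127A against MX (SE 0.14, adjusted p = 0.281) and 0.15 with YAP1 against MX (SE 0.14, adjusted p = 0.626). Under total-count scaling the estimates of S100A6 and S100A16 with YAP1-S127A turned to -0.08 and -0.03, so no direction is given for them.

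S100A13 takes part in the release of FGF1 and interleukin 1 alpha, which lack a signal peptide. It had 51.2, 66.0 and 69.5 CPM in YAP1-S127A libraries, 62.4, 58.9 and 54.1 CPM in YAP1 libraries and 48.6, 59.5 and 49.3 CPM in MX libraries, and the groups overlapped. Its log2 fold change was 0.25 with YAP1-S127A against MX (SE 0.13, adjusted p = 0.197) and 0.16 with YAP1 against MX (SE 0.13, adjusted p = 0.563), and the first of these was -0.01 under total-count scaling. The gene that overlaps it, S100A1, had 16.8% as many counts as S100A13 over all libraries. S100P, a placental member that binds ezrin, had 1, 3 and 0 counts in YAP1-S127A libraries, 3, 4 and 0 counts in YAP1 libraries and 0, 0 and 5 counts in MX libraries. S100P was not tested. It stayed at or below 0.227 CPM in all libraries, and a difference within that range was not detectable at this depth.

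**Figure D3:**
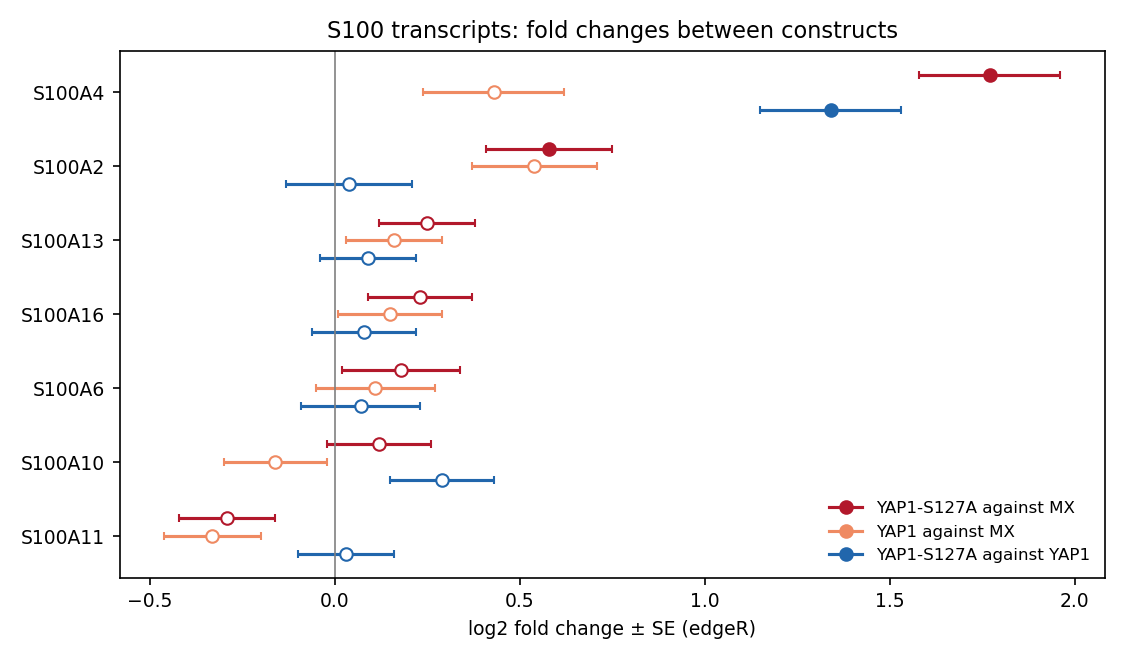
Log2 fold change ± SE of the 7 tested S100 genes in the 3 comparisons, from edgeR's fit over all libraries, with filled points where the adjusted p was under 0.05. S100A4 stands at 1.77 for YAP1-S127A against MX and at 1.34 between the constructs, and S100A2 is filled at 0.58 for YAP1-S127A against MX.

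The comparison of YAP1 with MX asks the same of the wild-type form and shares the MX libraries. No member passed edgeR's test with Benjamini-Hochberg adjustment, that is 0 of 7, where 6.81% of all tested genes were called, 3.23% as higher and 3.58% as lower. That split was 500 genes higher and 555 lower, and under total-count scaling it was 311 higher and 679 lower. At an unadjusted p under 0.05 there were 3 of 7, DESeq2 called 0 and limma-voom called 1, S100A2. The log2 fold changes were 0.54 for S100A2 (SE 0.17, adjusted p = 0.0673) and 0.43 for S100A4 (SE 0.19, adjusted p = 0.221). Both depended on MX replicate 2, the MX library with the highest level of either gene. Without it S100A2 had 0.80 and S100A4 had 0.77, each with an adjusted p of 0.00211 and both called. Without any filter on low counts both were called too, with an adjusted p of 0.00908 for S100A2 and 0.0497 for S100A4. The median log2 fold change of the 7 was 0.15, beside 0.00 for all tested genes.

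Setting YAP1-S127A directly against YAP1 addresses the difference between the constructs. S100A4 was higher with YAP1-S127A by 2.53-fold, and it was the 1 member of 7 that passed, where 1.97% of all tested genes were called, 1.13% as higher and 0.839% as lower. It was also the 1 member of 7 whose groups did not overlap, as for 19.6% of tested genes. In edgeR's test its log2 fold change was 1.34 (SE 0.19, adjusted p = 0.00103), with 1.14 to 1.44 over 21 alternative settings and the call kept in each. The YAP1 transcript itself was lower in YAP1-S127A libraries than in YAP1 libraries, by -0.83 as log2 fold change (adjusted p = 0.00383), a call lost under 2 of 21 settings. The other 6 members had log2 fold changes between 0.03 (S100A11, SE 0.13) and 0.29 (S100A10, SE 0.14). S100A2 in particular had 0.04 (SE 0.17, adjusted p = 0.959), so that its levels with the 2 forms of YAP1 were not separated at this spread. Over 21 alternative settings S100A2, S100A6, S100A11, S100A13 and S100A16 reached -0.16, -0.13, -0.17, -0.1 and -0.12, so no direction is given for them. S100A10 ran from 0.09 to 0.50. Total-count scaling shifted the median over all tested genes by -0.2 in this comparison. Of the 5 fibroblast genes that rose against MX, all 5 were also higher with YAP1-S127A than with YAP1, although COL1A2 lost that call under 10 of 21 settings (adjusted p up to 0.14).

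Ratios of counts within a library leave out any scaling between libraries. S100A4 had 2.45, 2.61 and 2.75 counts per 100 counts of S100A6 in YAP1-S127A libraries, 1.04, 1.09 and 1.12 in YAP1 libraries and 0.896, 1.01 and 0.702 in MX libraries. On this ratio the 3 groups did not overlap, and MX replicate 2 no longer stood above the YAP1 libraries. S100A11 had 46.0, 41.5 and 39.5 counts per 100 of S100A6 in YAP1-S127A libraries, 45.0, 43.8 and 40.7 in YAP1 libraries and 73.3, 51.2 and 56.7 in MX libraries. All libraries of both groups with added YAP1 were below all MX libraries, and those groups overlapped each other. Per 100 counts of S100A3, the gene inside its listed span, S100A4 had 323, 262 and 304 counts in YAP1-S127A libraries, 156, 151 and 152 in YAP1 libraries and 144, 171 and 112 in MX libraries. The counts of the overlapping pair thus changed unequally with YAP1-S127A. S100A16 per 100 counts of S100A6 overlapped between all groups, with means of 45.8 in YAP1-S127A, 45.3 in YAP1 and 44.7 in MX libraries. S100A10 per 100 of S100A6 averaged 18.9, 16.2 and 20.1 in that order, and YAP1-S127A overlapped both other groups. S100A4 per 100 of S100A11 averaged 6.19, 2.52 and 1.48, without overlap. The share of all gene pairs that separate was not examined.

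**Figure D4:**
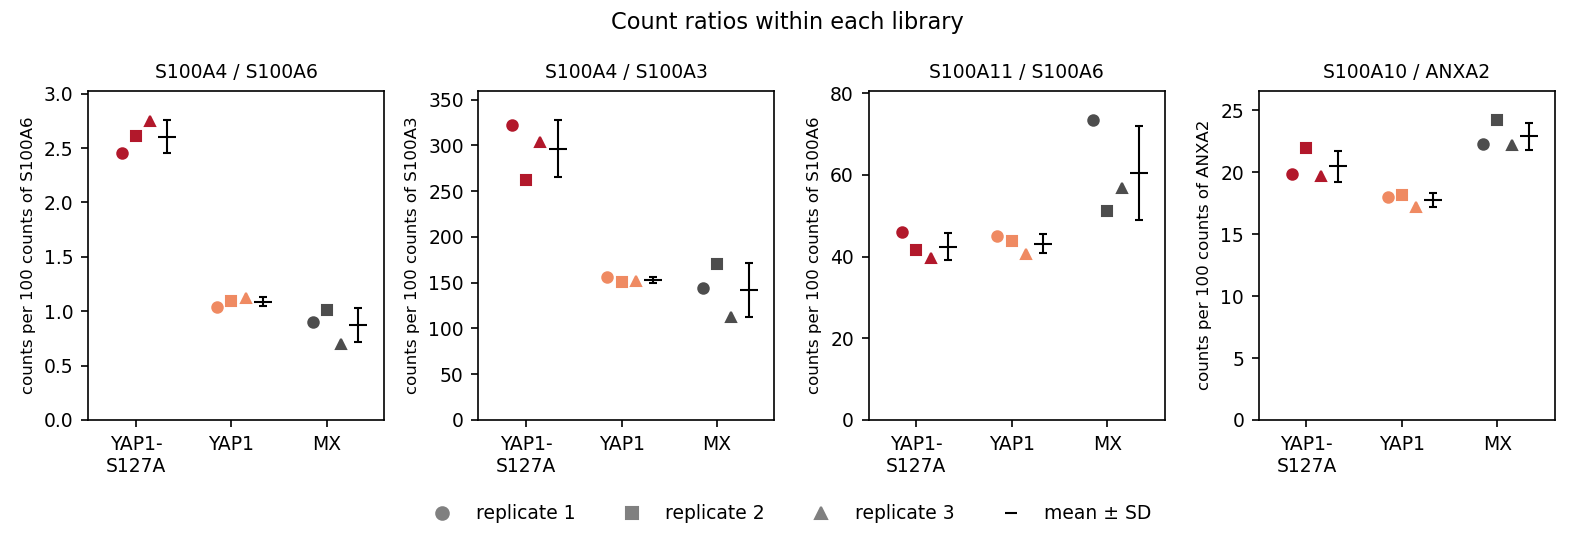
Ratios of raw counts within each library (points, shaped by replicate number) with the mean ± SD of 3 libraries, for YAP1-S127A, YAP1 and MX. S100A4 per 100 counts of S100A6 lies between 2.45 and 2.75 with YAP1-S127A and at or below 1.12 in the other groups, and S100A10 per 100 counts of ANXA2 is highest in MX and lowest with YAP1.

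Of the other 13 S100 genes on the list, 4 passed the filter. S100A3 rose with YAP1-S127A against MX, with 15.7, 23.8 and 21.9 CPM in YAP1-S127A libraries, 15.5, 16.1 and 14.8 CPM in YAP1 libraries and 9.38, 15.0 and 12.8 CPM in MX libraries. That log2 fold change was 0.74 (SE 0.17, adjusted p = 0.00522), and the value is uncertain because S100A3 and S100A4 share a span and strand. S100A1 had 0.20 in that comparison (adjusted p = 0.533), and S100A5 and S100A14, both under 1 CPM on average in every group, had 0.32 and -0.07. In the remaining comparisons, of YAP1 with MX and of the constructs with each other, edgeR called 0 of these 4. DESeq2 and limma-voom called 0 as well, and 0 and 1 had an unadjusted p under 0.05. Of all tested genes edgeR called 18.4% with YAP1-S127A against MX, 6.81% with YAP1 against MX and 1.97% between the constructs. With 4 genes, such counts cannot be told apart from these shares. The inflammatory S100A8 and S100A12 had 0 counts in all 9 libraries, and S100A9 had 2 counts in all. Of 7 leukocyte markers the summed level was 1.21 to 2.26 CPM in YAP1-S127A, 1.24 to 1.92 CPM in YAP1 and 1.35 to 2.24 CPM in MX libraries. Of 6 keratinocyte markers the sum stayed at or below 0.381 CPM in YAP1-S127A, 0.399 CPM in YAP1 and 0.0751 CPM in MX libraries, with KRT14 and KRT6A at 0 counts throughout. S100B, used as a marker of melanocytes and Schwann cells, had 4 counts in all, and 5 markers of those cells summed to 2.41 to 3.43 CPM in YAP1-S127A, 2.18 to 2.80 CPM in YAP1 and 2.53 to 3.76 CPM in MX libraries.

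The annexins are calcium-dependent membrane proteins, several of which bind S100 dimers. Of 12 tested genes of the annexin and AHNAK list, 2 rose and 3 fell with YAP1-S127A against MX, 1 rose and 1 fell with YAP1 against MX, and 1 was higher with YAP1-S127A than with YAP1. Of all tested genes 18.4%, 6.81% and 1.97% were called in these comparisons. The list's median log2 fold changes were 0.17 for YAP1-S127A against MX, -0.02 for YAP1 against MX and 0.09 between the constructs, beside 0.00, 0.00 and 0.01 for all tested genes. ANXA3 had 87.9, 89.5 and 115 CPM in YAP1-S127A libraries, 57.9, 71.4 and 61.5 CPM in YAP1 libraries and 24.6, 26.6 and 23.3 CPM in MX libraries. The groups did not overlap, and in edgeR's test the log2 fold changes were 1.98 for YAP1-S127A against MX (adjusted p = 5.04e-09), 1.36 for YAP1 against MX (adjusted p = 1.91e-06) and 0.62 for YAP1-S127A against YAP1 (adjusted p = 0.0117). The last of these calls was lost under 6 of 21 settings, with an adjusted p up to 0.302. ANXA13, an annexin of the intestinal and kidney epithelium, was low and fell with both forms, with means of 0.276 CPM in YAP1-S127A, 0.938 CPM in YAP1 and 3.02 CPM in MX libraries. With YAP1-S127A against MX, ANXA6 rose (0.48, adjusted p = 0.00826) and ANXA4 fell (-0.48, adjusted p = 0.00514), calls that were lost under 2 of 21 settings each. ANXA2, the partner of S100A10, averaged 2104 CPM in YAP1-S127A, 1996 CPM in YAP1 and 1730.4 CPM in MX libraries and was not called (log2 fold change 0.28, adjusted p = 0.175, for YAP1-S127A against MX). ANXA1, the partner of S100A11, had 0.31 in the same comparison (adjusted p = 0.0949).

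Of 21 tested binding partners and receptors of S100 proteins, 5 rose and 4 fell with YAP1-S127A against MX, and 3 rose and 1 fell with YAP1 against MX. Of all tested genes 18.4% and 6.81% were called, and the list's median log2 fold changes were 0.07 with YAP1-S127A and 0.09 with YAP1. Among the partners of S100A13, FGF1, a growth factor released with it, rose with both forms, with means of 4.37 CPM in YAP1-S127A, 3.57 CPM in YAP1 and 0.834 CPM in MX libraries. IL1A, the gene of interleukin 1 alpha, was called by edgeR with neither form. Its log2 fold change was 0.16 with YAP1-S127A (adjusted p = 0.656) and 0.36 with YAP1 (adjusted p = 0.36). SYT1, a synaptotagmin of the same release complex, fell with both, by 0.41 on the log2 scale with YAP1-S127A (adjusted p = 0.0214) and by 0.54 with YAP1 (adjusted p = 0.00778). Around the S100A10 complex, the plasminogen activator genes PLAU and PLAT rose with YAP1-S127A against MX, with log2 fold changes of 0.91 (adjusted p = 0.000138) and 0.99 (adjusted p = 0.000151). With YAP1 against MX, PLAU also rose (0.62, adjusted p = 0.00977), and that call was lost under 2 of 21 settings. EZR, the S100P partner ezrin, rose with both forms, by 0.55 with YAP1-S127A (adjusted p = 0.00243) and by 0.62 with YAP1 (adjusted p = 0.00221). MYH9, the myosin heavy chain that S100A4 binds, averaged 635 CPM in YAP1-S127A, 737 CPM in YAP1 and 665 CPM in MX libraries and was not called with YAP1-S127A against MX (-0.07, adjusted p = 0.771). AGER, the gene of RAGE, averaged 1.40 CPM in YAP1-S127A, 1.08 CPM in YAP1 and 1.29 CPM in MX libraries.

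Of 21 tested EF-hand genes outside the S100 family, 5 rose with YAP1-S127A against MX and 1 rose with YAP1 against MX. None of the list was called lower in these comparisons. Taken as calls in either direction, the counts are near the background, since 18.4% and 6.81% of all tested genes were called. As higher, 9.53% and 3.23% of all tested genes were called. The list's median log2 fold changes were -0.04 with YAP1-S127A and 0.03 with YAP1. KCNIP3, a calcium-binding repressor and channel partner, rose with both forms, with means of 22.0 CPM in YAP1-S127A, 19.1 CPM in YAP1 and 3.85 CPM in MX libraries. CALM2, a calmodulin gene, rose with YAP1-S127A (0.51, adjusted p = 0.00279), while CALM3, which encodes the same protein, had -0.06 (adjusted p = 0.807). The call of CALM2 was lost under 2 of 21 settings, with an adjusted p up to 0.274. CALU, the secretory pathway protein calumenin, rose by 0.68 (adjusted p = 0.00111), and CAPN2, the large chain of m-calpain, by 0.39 (adjusted p = 0.0233), a call lost under 6 of 21 settings. Between the constructs edgeR called 0 of the 21, beside 1.97% of all tested genes. Of the 21, 2 had an unadjusted p under 0.05, and DESeq2 and limma-voom each called 0.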

How the data were processed

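The authors deposited unnormalized whole-number counts per gene for each of the 9 libraries. The submitters' processing notes list HISAT2, Salmon 1.9.0, Cufflinks and the mouse build GRCm39 without role or order, and the labels name the mouse, but the deposited gene identifiers are human. The sources used here do not name a human build, counting program or strand setting. The positions and the gene length deposited beside the counts are other annotation values in bases.

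Genes were filtered with filterByExpr on the 3 groups (15492 of 58735 kept), scaled by TMM and fitted over all 9 libraries (edgeR 4.0.16, R 4.3.3; term group; robust quasi-likelihood). P-values were two-sided, adjusted by Benjamini-Hochberg over the 15492 genes, and called at an adjusted p under 0.05. The SE is the absolute log2 fold change over the square root of F. Log2 CPM used a prior count of 2. Limits from counts cover counting error only. The steps were tested on simulated counts.

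All members are named, with other tested S100 genes, YAP1, and up to 4 called genes of each list; further list genes were chosen after their values were seen, and a few named by the rule are not reported here. The members and lists were chosen with earlier results of these data known. Alternatives were scaling by RLE, by total counts or without mitochondrial genes, a stricter filter or none, coding genes alone, DESeq2 1.42.0, limma-voom (limma 3.58.1), 2 groups alone, the replicate number as a block, the mitochondrial share as covariate, and each library left out. YAP1-S127A by replicate 2 alone was chosen after seeing the data.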

Additional observations from a re-analysis of the deposited data

How the results depend on the processing

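Of the members' fold changes, 427 of those recomputed under alternatives stayed on their side of the threshold, 7 lost and 7 gained a call, and 0 called ones reversed. In YAP1 against MX the count of called members was 2 with no filter, 1 with limma-voom and 1 with the replicate block, S100A2 in both (adjusted p = 0.0455 and 0.0125), and 0 to 2 with a library left out, the 2 without MX replicate 2. In YAP1-S127A against MX it was 1 with the mitochondrial covariate and 1 with YAP1-S127A by replicate 2 alone, and 1 to 2 with a library left out. In YAP1-S127A against YAP1 it was 1 throughout. Called genes in all were 601 to 1423, 1847 to 3079 and 126 to 465 with a library left out, for YAP1 with MX, for YAP1-S127A with MX and for the constructs with each other. The first count moved by over 1.5 times without YAP1 replicate 2 (639) or 3 (601), and the second without YAP1-S127A replicate 3 (1847). The third did so without YAP1 replicate 1 (189), 2 (166) or 3 (144), YAP1-S127A replicate 2 (188) or 3 (126), or MX replicate 1 (465). In YAP1-S127A against MX they numbered 4447 with total counts (611 higher, 3836 lower, against 1476 and 1369), 1405 with the covariate and 1278 with replicate 2 alone. In YAP1-S127A against YAP1 they numbered 616 with total counts (113 higher, 503 lower, against 175 and 130), 520 with no filter, 475 with DESeq2, 478 with the 2 groups alone, 472 with the replicate block and 151 with replicate 2 alone. The summed member level with YAP1-S127A was 4395 CPM with total counts. The cause of these shifts was not tested. Differences in mitochondrial share were 1.25 to 5.22, 9.52 to 20.6 and 6.48 to 17.6 percentage points with a library left out. Same-numbered libraries had deviations that correlated from -0.178 to 0.204 over the tested genes, and the numbers were not taken as pairs. With the replicate number as a block, more genes were called in each comparison. They numbered 1428 against 1055 for YAP1 with MX, 3426 against 2845 for YAP1-S127A with MX, and 472 against 305 for the constructs. A structure by replicate number in some genes is therefore not excluded.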

Other observations

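Around the chromosome 1 members, 39 tested genes other than the 8 lay within 500 kb of at least 1 member. They included the family genes S100A1, S100A3, S100A5 and S100A14. Of the 39, 4 rose and 2 fell with YAP1-S127A against MX (15.4%, beside 18.4% of all tested genes), and 1 rose and 2 fell with YAP1 against MX (7.69%, beside 6.81%). S100A3, which lies inside the listed span of S100A4, was among those that rose with YAP1-S127A. TUFT1, an adaptor first described in tooth enamel, rose with both forms, by log2 fold changes of 0.76 with YAP1-S127A (edgeR adjusted p = 3.54e-05) and 0.52 with YAP1 (adjusted p = 0.00355). NPR1, a receptor for natriuretic peptides, rose with YAP1-S127A (0.99, adjusted p = 4e-04), while RAB13, a small GTPase of junction trafficking, fell with both (-0.61 with YAP1-S127A and -0.53 with YAP1, the second call lost under 3 of 21 settings). Between the constructs edgeR called 0 of the 39, beside 1.97% of all tested genes. Of the 39, 5 had an unadjusted p under 0.05, DESeq2 called 1 and limma-voom 0.

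For each member the protein-coding genes outside the family whose log2 CPM followed it most closely over the 9 libraries are given as a description, with Pearson's r, from 9569 genes searched. The libraries share groups and scaling, so r carries both. They were UBE2B (0.983) and REXO2 (0.982) for S100A4, C1QTNF1 (0.987) and MRGBP (0.942) for S100A2, and TSFM (0.975) and SNRPF (0.971) for S100A11. For S100A10 they were KRT18 (0.976) and ATOX1 (0.953), for S100A6 DDAH2 (0.970) and CUTA (0.970), for S100A16 TAGLN2 (0.981) and POLR2E (0.979), and for S100A13 MT1E (0.958) and BNIP1 (0.954). By rank, Spearman's rho was lower for TAGLN2 (0.7), MRGBP (0.733) and POLR2E (0.85), and at least 0.9 for the other genes named.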
